A study of Caenorhabditis elegans with 4 samples.

Results

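Broad JUN-1::GFP regions are the peaks of the authors' combined list that were at least 1000 bp wide and overlapped, by 1 bp or more, a peak in each of the 2 chromatin immunoprecipitation (ChIP-seq) replicate lists. There were 302 of them among 4152 combined peaks (7.27%, 95% exact interval 6.5 to 8.11). They covered 0.541 Mb, or 26.3% of all bases in the combined list. The regions were chosen by their width in the combined list, so their widths there, and every difference from narrower peaks that follows from width, are given as a description without a test. The narrower peaks used beside them are the 1438 combined peaks under 1 kb that also overlapped both replicate lists.

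The libraries came from hermaphrodite Caenorhabditis elegans of strain OP234 at L4, the last larval stage, grown at 20 °C. The strain carries unc119(ed3) and the transgene wgIs234, which was brought in by bombardment and holds T24H10.7 (jun-1) joined to TY1, EGFP and FLAG tags together with unc119. Both ChIP libraries and both input libraries share this genotype, so there is no untagged control, and extracts of entire worms mix all tissues that express the transgene. Chromatin was fixed with 2% formaldehyde and collected with goat antibodies against GFP. The titles name 2 ChIP and 2 input libraries, whereas the sample descriptions name input DNA for those titled ChIP, and the titles were followed here. Nothing in the labels tells whether separate cultures gave the replicates, so their differences can be technical, and the input libraries were not analysed here.

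JUN-1 belongs to the basic leucine zipper family of transcription factors and is the worm relative of Jun in AP-1, which binds DNA as a dimer at short recognition sites and is known for responses to stress and growth signals in animals. A factor of this kind touches only a few base pairs at a site, and the sonicated fragments that carry it spread the ChIP signal beyond the site. A peak caller joins neighbouring enriched positions into 1 interval, so a wide interval can hold several summits or a continuous stretch of signal, and the deposited intervals carry no summits. In each of the 3 lists the smallest gap between neighbouring peaks was 200 bp. A region therefore counts as split here only where called peaks lay at least that far apart.

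Of the combined peaks, 372 (8.96%) were 1 kb or wider. Besides the 302, these include 70 that overlapped no replicate 1 peak, whereas 0 of the 372 lacked a replicate 2 peak. The share found in both replicate lists was 81.2% (76.8 to 85) of these wide peaks and 38% (36.5 to 39.6) of the combined peaks under 1 kb. The wide peaks without a replicate 1 partner were narrower and weaker, with a median width of 1260 bp (1005 to 3107 bp), and their median −log10 q was 9.77, against 24.2 in the broad regions. They lay on I (16), X (13), II (12), V (12), III (10) and IV (7). At the limit itself, the narrowest broad regions were X 6607007 to 6608006 at 1000 bp (q = 1.85e-09) and I 1068036 to 1069041 and III 9667620 to 9668625 at 1006 bp each (q = 1.24e-22 and 1.26e-18). Just under it stood IV 10821336 to 10822329 at 994 bp (q = 2.08e-13), III 10214299 to 10215291 at 993 bp (q = 4.99e-12) and IV 4027653 to 4028643 at 991 bp (q = 1.38e-11). Widths ran on across the limit without a step. Positions and q-values are those of the authors' peak lists on the WormBase WS180 build.

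Most broad regions were between 1 and 2 kb wide. Their median combined width was 1466 bp (quartiles 1168 and 1949 bp), 147 were 1500 bp or wider, 75 were 2000 bp or wider, 23 reached 3000 bp and 6 reached 5000 bp. The same regions were about as wide in replicate 2 and narrower in replicate 1. The widest overlapping peak had a median of 1474 bp in replicate 2 (559 to 9289 bp) and of 857 bp in replicate 1 (134 to 4725 bp). In replicate 2, 299 of the 302 regions (99%, 97.1 to 99.8) overlapped a peak of 1 kb or more. In replicate 1, 115 did (38.1%, 32.6 to 43.8). Over all 1740 combined peaks found in both replicate lists the shares with such a peak were 17.5% in replicate 2 and 6.67% in replicate 1, so the broad regions account for nearly all of them, which the choice by width largely fixes. Of the 127 replicate 1 peaks of 1 kb or more, 125 overlapped a broad region. The other 2 were the neighbouring chromosome II intervals 9108624 to 9123778 and 9124038 to 9133977, 15155 and 9940 bp wide, at which neither other list had a peak. They were among the strongest calls of replicate 1, at ranks 19 (q = 1.13e-59) and 3 (q = 1.13e-128). Of the 373 replicate 2 peaks of 1 kb or more, 300 (80.4%) overlapped a broad region.

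**Figure D1:**
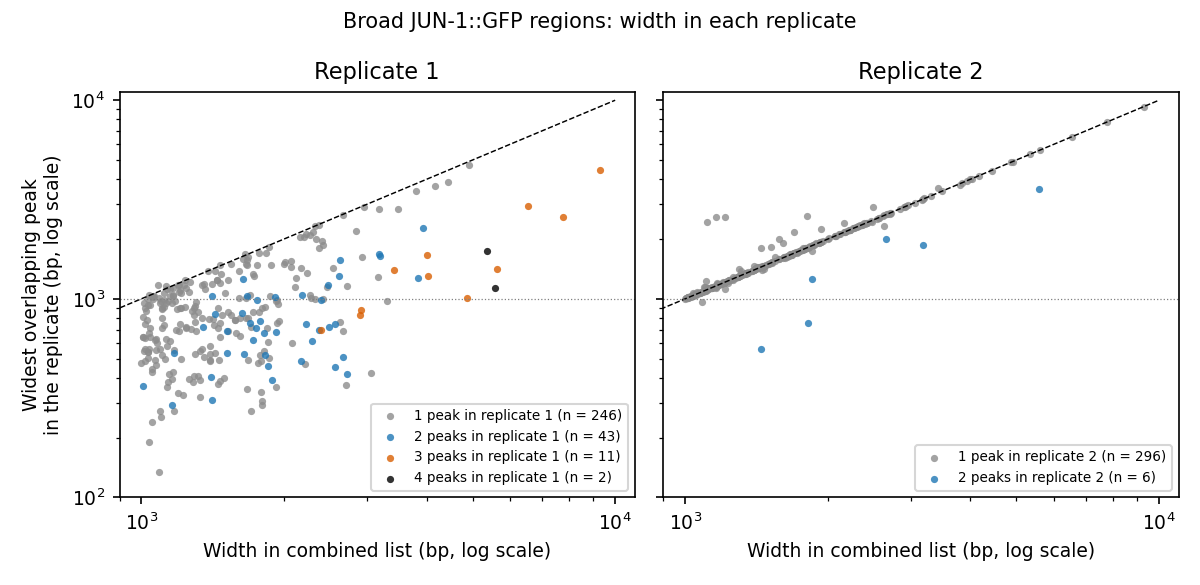
Each point is 1 of 302 broad regions, with its width in the combined list on the x axis and the width of its widest overlapping peak in replicate 1 (left) or replicate 2 (right) on the y axis, in bp on log scales. Colours give the number of overlapping peaks, the dashed line marks equal width and the dotted line 1000 bp; most replicate 2 points lie on the line, whereas the replicate 1 points spread below it, with a median of 857 bp.

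Among combined peaks found in both replicate lists, replicate 1 covered less of the broad regions than of the narrower peaks. That condition kept 81.2% of the combined peaks of 1 kb or more and 38% of those under 1 kb. Peaks without any replicate 1 coverage are left out, so the order holds only under that condition. Replicate 1 had 1862 peaks, 373 of them at broad regions, against 3780 combined peaks under 1 kb. Most of those 3780 therefore had no replicate 1 coverage, whereas 81.2% of the 372 peaks of 1 kb or more had some. Over all combined peaks the order of the medians was thus the reverse. Replicate 1 peaks covered a median of 61.4% of a broad region (quartiles 44.8 and 84.2%) and 82.9% of a narrower peak, while replicate 2 covered a median of 100% of both. Less than 50% of the width was covered in replicate 1 in 100 broad regions (33.1%, 27.8 to 38.7) and in 122 narrower peaks (8.48%, 7.1 to 10). The classes also differed among the strongest peaks. Of the 500 combined peaks with the smallest q, 219 were broad and 271 narrower regions in both lists, and their median coverage in replicate 1 was 69.6% and 85.7%. The q-values of these 219 were still the smaller, with a median −log10 q of 31.6 against 21.1. Over the 302 regions, the first base called in replicate 1 lay a median of 118 bp inside the combined region and the last base 125 bp inside, against 28 bp at each end of the narrower peaks. The distances were not scaled to combined width, which had medians of 1466 bp in broad and 430 bp in narrower regions. Single regions could be one-sided, as in V 19049073 to 19051772, where these distances were 22 and 2309 bp. In 262 regions (86.8%, 82.4 to 90.4) the replicate 1 peaks stayed within the combined ends, as in 77.1% of the narrower peaks (74.8 to 79.2). Combined ends were those of a replicate 2 peak in 203 broad regions (67.2%), a share like that of narrower peaks (66.8%). Both ends of a replicate 1 peak were matched in 0 broad regions and in 9 narrower peaks (0.626%), also a like share. Across the 302 regions, combined width had a Spearman's rho of 0.95 with the widest replicate 2 peak and of 0.42 with the widest replicate 1 peak. These regions share libraries and the combined list largely repeats replicate 2, so the first value is no separate measurement. The replicate 1 list was also the shorter, with 1862 peaks against 4143, and the part of depth, which is unknown for both libraries, was not tested.

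A small number of regions kept or exceeded their width in replicate 1. In 7 of the 302, chosen after their values were seen, the replicate 1 peak was wider than the combined one. Among them were III 598809 to 601135 with 2327 bp combined, 2330 bp in replicate 1 and 2326 bp in replicate 2, and X 2996373 to 2997500 with 1128, 1158 and 1128 bp. Another was III 12931179 to 12932264 with 1086, 1170 and 1088 bp, which replicate 1 covered entirely. In these 3 regions both replicates gave intervals of nearly the same extent.

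At the other end stood the regions that replicate 1 covered least. X 3816329 to 3819379 was 3051 bp wide in the combined list and in replicate 2, and replicate 1 had 1 peak of 425 bp there, or 13.9% of the width. V 19049073 to 19051772 was 2700 bp wide in the combined list and in replicate 2, with 1 peak of 369 bp (13.7%) in replicate 1. In V 6007754 to 6009453, 1700 bp wide, replicate 2 spanned 2182 bp and replicate 1 had 271 bp (15.9%). These 3 stretches were over 1 kb wide in replicate 2 and under 500 bp in replicate 1. IV 14098347 to 14099433 was 1087 bp wide in the combined list, 967 bp in replicate 2 and 134 bp in replicate 1 (12.3%). The lowest coverage, 8.83%, was in V 7855633 to 7856866 (1234 bp). Its replicate 1 partner, a peak of 1237 bp, reached only its first bases and began 1128 bp before it. This was also the weakest broad region, with a q of 0.000169 at place 3841 of the combined list, and the 1 region outside the better-ranked 50% of that list, and it met the rule through this marginal overlap. It is also among the 7 regions counted as wider in replicate 1. It also counts among the 115 with a replicate 1 peak of 1 kb or more, as peak widths include bases outside the region.

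Replicate 1 split 56 of the 302 broad regions into 2 or more peaks (18.5%, 14.3 to 23.4), against 3.39% of all combined peaks found in both lists and 0.209% of the narrower ones. Of the 56, 43 held 2 replicate 1 peaks, 11 held 3 and 2 held 4. Replicate 2 split 6 regions (1.99%, 0.733 to 4.27), against 0.402% of all combined peaks in both lists. A wider interval has more room for several peaks, and the part of width in these differences was not separated. The 127 replicate 1 peaks in the split regions had a median width of 614 bp (1 to 4471 bp), against 338 bp for the widest replicate 1 peak of a narrower region. Of the 127, 32 were 1 kb or wider. The 71 gaps between them had a median of 308 bp, ran from 200 to 1920 bp and were under 500 bp in 56 cases. Measured from the first to the last base, replicate 1 spanned 1 kb or more in 52 of the 56 split regions (92.9%), although 22 held a peak of that width (39.3%). Counting span in place of the widest peak raised the regions that were broad in replicate 1 from 115 to 145 of 302 (48%, 42.3 to 53.8).

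Wider regions were more often split. Replicate 1 split 8 of the 155 regions of 1000 to 1499 bp (5.16%, 2.25 to 9.92), 17 of the 72 of 1500 to 1999 bp (23.6%, 14.4 to 35.1), 17 of the 52 of 2000 to 2999 bp (32.7%, 20.3 to 47.1) and 14 of the 23 of 3000 bp or more (60.9%, 38.5 to 80.3). Coverage did not fall along with it. The median share covered in replicate 1 was 61.4%, 54.5%, 63% and 79.9% in these classes, and Spearman's rho of width and coverage was -0.043 over the 302 regions, which share their libraries. The split regions had a median coverage of 64.3% and the unsplit ones 59.2%, with median combined widths of 2262 and 1386 bp. Their widest replicate 1 peaks had medians of 802 and 876 bp. The interval of a share covers counting error only and treats regions as independent.

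**Figure D2:**
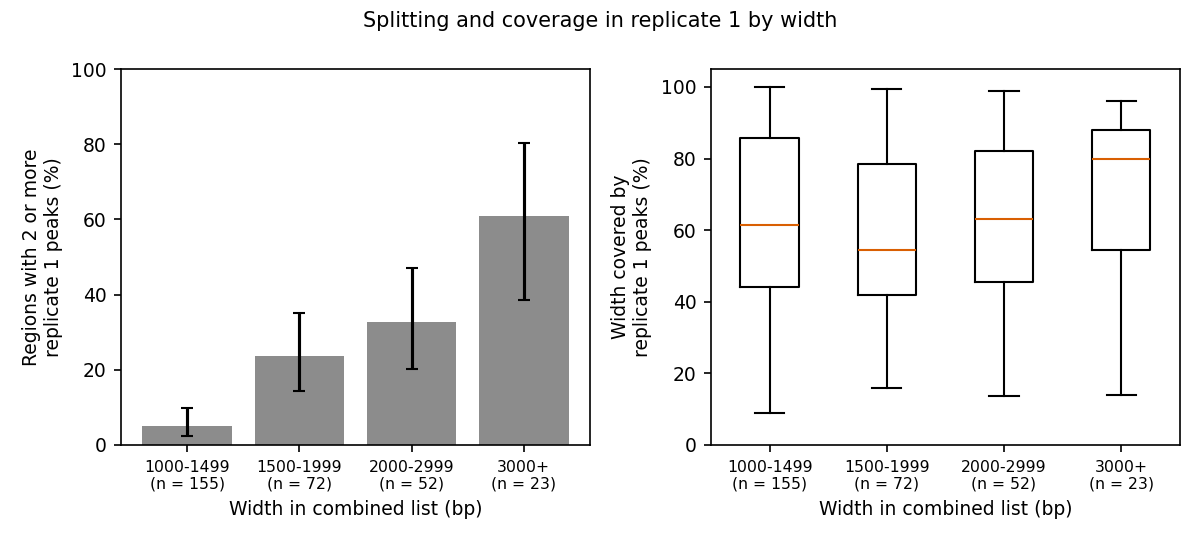
Left, the share of broad regions with 2 or more replicate 1 peaks in 4 classes of combined width, with exact 95% intervals; it runs from 5.16% in the narrowest class to 60.9% in the widest. Right, the percentage of each region's width covered by replicate 1 peaks in the same classes, with medians (orange), quartiles (boxes) and full ranges (whiskers), which overlap throughout.

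The 10 widest regions show both forms, continuous in each replicate or broken up in replicate 1. The widest, V 6220704 to 6229986, was 9283 bp wide and spanned 9289 bp in replicate 2. Replicate 1 had 3 peaks there, of 2736 bp (q = 2.66e-39), 4471 bp (q = 1.35e-71) and 1308 bp (q = 3.06e-25), which together covered 91.7% of it. The gaps between them were 217 and 472 bp, and the pieces ranked at 35, 16 and 76 in replicate 1.

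II 10541863 to 10549619 was 7757 bp wide in the combined list and in replicate 2. In replicate 1 it consisted of peaks of 2524 bp (q = 3.78e-30), 2571 bp (q = 5.8e-11) and 1796 bp (q = 3.69e-13), covering 88.8%. The strongest piece, its leftmost, ranked at 59 in replicate 1, while the widest piece ranked at 329. II 5335287 to 5341824, 6538 bp wide in both lists, held replicate 1 peaks of 994, 2921 and 1738 bp covering 86.4%. These 3 were the most fully covered of the regions that replicate 1 split among the 10 widest.

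Other wide regions were less completely filled. X 14557360 to 14562978, 5619 bp wide in the combined list and in replicate 2, held replicate 1 peaks of 345, 1414 and 1291 bp that covered 54.3% of it. IV 291410 to 296285 was 4876 bp wide and 4895 bp in replicate 2, and its replicate 1 peaks of 1015, 575 and 609 bp covered 45.1%. The gap after the first of these, 1920 bp, was the longest within any broad region. I 7078584 to 7083936, 5353 bp wide in the combined list and in replicate 2, held 4 replicate 1 peaks of 1733, 1072, 614 and 518 bp, with q-values from 5.08e-36 for the widest to 8.81e-07 for the narrowest, covering 73.5%.

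X 11480855 to 11486434, at 5580 bp, was split in both replicates. Replicate 2 had peaks of 3586 bp (q = 2.05e-34) and 1697 bp (q = 3.94e-21), and replicate 1 had 4 of 1136, 317, 464 and 685 bp that covered 46.1%. It was the only one of the 10 in which replicate 2 showed a break.

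The remaining 3 of the 10 were single intervals in each list. V 723376 to 728288 measured 4913 bp combined, 4725 bp in replicate 1 and 4913 bp in replicate 2. III 832802 to 837244 measured 4443, 3866 and 4426 bp, and II 6344889 to 6349064 measured 4176, 3684 and 4176 bp. Between 87% and 96.2% of these regions was covered in replicate 1. At these places replicate 1 called intervals of over 3 kb without a break.

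**Figure D3:**
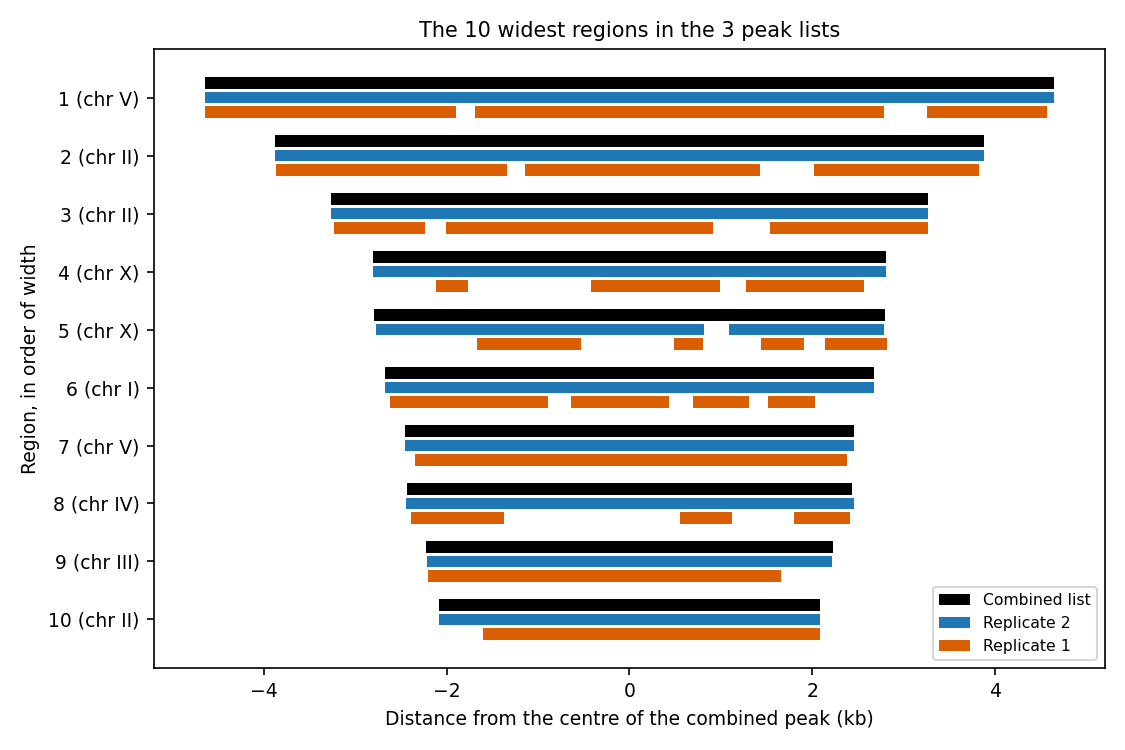
The 10 widest broad regions from top to bottom, as called in the combined list (black), replicate 2 (blue) and replicate 1 (orange), drawn to scale by distance in kb from the centre of the combined peak. Replicate 1 had 3 or 4 peaks in regions 1 to 6 and 8 and a single peak in regions 7, 9 and 10; replicate 2 had a break in region 5 alone.

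The 6 regions split in replicate 2 were single intervals in the combined list that held 2 replicate 2 peaks each. In X 4208296 to 4211470 (3175 bp), replicate 2 had a strong peak of 1875 bp (q = 4.14e-193) followed by a weaker one of 1088 bp (q = 1.31e-10). X 4960341 to 4963000 (2660 bp) held peaks of 437 and 2007 bp, and I 10178195 to 10180048 (1854 bp) held 341 and 1254 bp. In the 2 smallest of the 6, no replicate 2 peak reached 1 kb. IV 14622721 to 14624537 (1817 bp) held peaks of 755 and 542 bp. V 5812024 to 5813471 (1448 bp), added here after its values were seen, held 435 and 559 bp. With IV 14098347 to 14099433 these are the 3 broad regions without a peak of 1 kb in replicate 2. The gaps between the replicate 2 pieces ran from 203 to 462 bp. The reverse was also seen, as 4 replicate 2 peaks overlapped a broad region together with another combined peak. In 1 of these cases both combined peaks were broad: V 6014232 to 6015394 and V 6015599 to 6016809, 1163 and 1211 bp wide and 204 bp apart, shared 1 replicate 2 peak of 2591 bp.

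Broad regions ranked high in the authors' q, which comes from the same calls as width and is given as a description. Of the 25 combined peaks with the smallest q, 18 were broad, as were 69 of the first 100 and 219 of the first 500. In replicate 1, 60 of its 100 strongest peaks and 182 of its 500 strongest were the best peak of a broad region. Other pieces of split regions are not in these counts. Of all 1862 replicate 1 peaks, 373 overlapped a broad region. The median −log10 q in the combined list was 24.2 for broad and 9.74 for narrower regions. Spearman's rho of −log10 q and width was 0.45 over the 302 broad and 0.52 over the 1438 narrower regions, which share libraries and an unknown depth. Regions with smaller q were also the better covered in replicate 1, with a rho of 0.40 over the 302. In the 56 regions split in replicate 1, the widest piece was also the one with the smallest q in 43 cases (76.8%, 63.6 to 87).

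Broad regions lay on all 6 chromosomes, with the highest share on X. X held 72 of the 302 (23.8%, 19.1 to 29.1) and 252 of the 1438 narrower regions (17.5%, 15.6 to 19.6), on 17.3% of the called span, and these intervals overlap at their ends. V held 60 (19.9%), III 53 (17.5%), IV 50 (16.6%), I 34 (11.3%) and II 33 (10.9%). Density was 4.2 broad regions per Mb on X and 3.87 on III, against 2.27 on I and 2.17 on II. Chromosome II had few regions of either kind, yet 21.3% of its peaks found in both lists were broad, close to the 22.2% on X and above the 13.7% on I. Among the 219 broad regions in the 500 strongest peaks, X held 21.5% (16.2 to 27.5), against 16.2% (12.1 to 21.2) of the 271 narrower ones, intervals that overlap. With I left out of both classes the X shares were 26.9% and 20.6%. None of these differences was tested, and regions that lie close together are not independent.

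**Figure D4:**
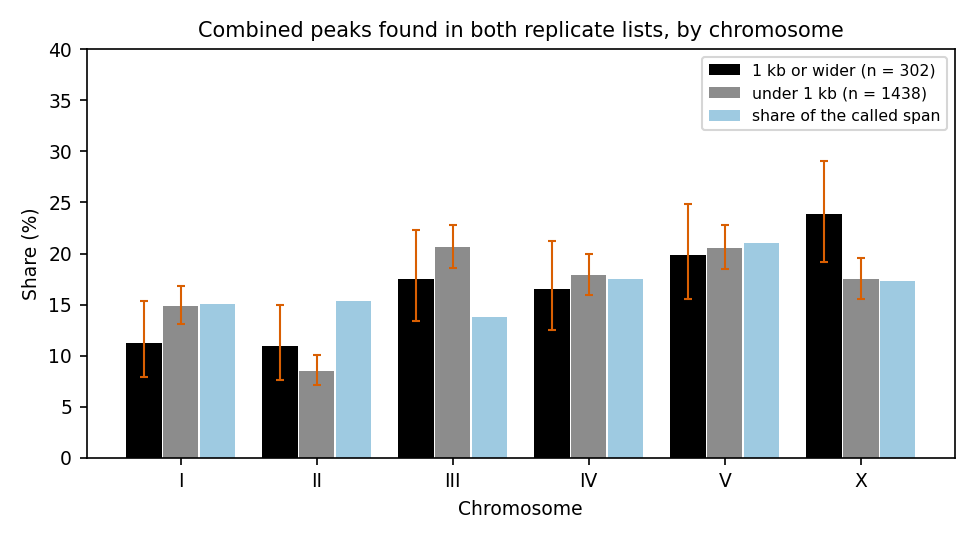
Shares in percent of the 302 broad regions (black) and the 1438 narrower combined peaks in both replicate lists (grey) on each chromosome, with exact 95% intervals, beside each chromosome's share of the called span (blue). X holds 23.8% of the broad regions and 17.5% of the narrower ones, and the intervals of the classes overlap on each chromosome.

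X regions were no wider in the median than those of most other chromosomes. The median combined width was 1455 bp on X, 1639 bp on I, 1633 bp on V, 1581 bp on II, 1455 bp on IV and 1398 bp on III. The widest region of each chromosome was 9283 bp on V, 7757 bp on II, 5619 bp on X, 5353 bp on I, 4876 bp on IV and 4443 bp on III. Median coverage in replicate 1 ran from 55.3% on IV and 56% on X to 70.3% on II. Replicate 1 split 9 of 72 regions on X (12.5%, 5.88 to 22.4) and 15 of 60 on V (25%, 14.7 to 37.9), with the other chromosomes between 15.2% and 26.5% and all intervals overlapping.

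Along the chromosomes, the central 33.3% of the called span held 112 broad regions (37.1%, 31.6 to 42.8), close to the 39.4% of narrower regions. The central parts of C. elegans autosomes are known to be rich in housekeeping genes and low in recombination, the arms being richer in repeats. The left part, of the same length, held 81 broad regions (26.8%) and the right part 109 (36.1%), against 30.5% and 30.1% of the narrower ones. On II, 1 of 33 broad regions (3244869 to 3246196) was in the left part, against 34 of 122 narrower ones there. On IV, 23 of 50 broad regions (46%) and 23.7% of the narrower ones were in the right part. On V the right part held 9 of 60 broad regions (15%) and 28% of the narrower ones. These shares rest on few regions and were not tested.

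Broad regions stood close to other peaks. The gap to the nearest other combined peak had a median of 968 bp (201 to 156702 bp) for broad and of 3738 bp for narrower regions. Another combined peak lay within 2000 bp of 205 broad regions (67.9%, 62.3 to 73.1), against 40.5% of all combined peaks and 37% of the narrower ones (34.5 to 39.6). Gaps were taken from edge to edge and not between centres. Among the 500 strongest peaks the shares were 68% of broad and 45% of narrower regions. The adjacent peaks on each side of the broad regions gave 258 neighbours within 2000 bp, a peak between broad regions counting for each. Of these, 116 were not found in both lists (45%, against 58.1% of distinct combined peaks). A further 92 were narrower and in both, and 50 were broad themselves. Counting neighbours found in both lists alone, 43.7% of broad (38 to 49.5) and 21.7% of narrower regions (19.6 to 23.9) had one within 2000 bp. Peaks on both sides within that distance flanked 53 broad regions (17.5%) and 103 narrower ones (7.16%).

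**Figure D5:**
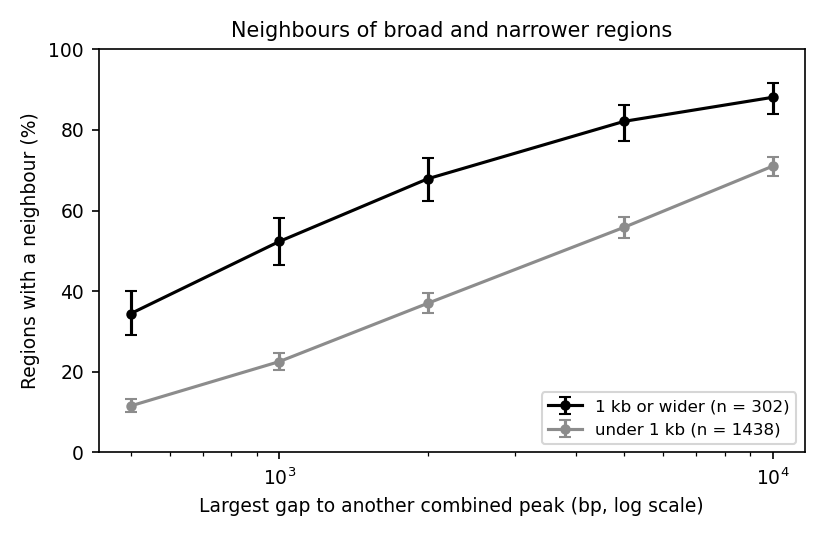
Share in percent of the 302 broad (black) and 1438 narrower (grey) regions with another combined peak within a given edge-to-edge gap in bp (log scale), with exact 95% intervals. At 2000 bp the shares are 67.9% and 37%, and the broad regions lie above the narrower ones at each of the 5 distances.

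Broad regions were sparse as a class but not evenly spread. The gap from 1 broad region to the next had a median of 169199 bp, with quartiles of 27314 and 444845 bp and a highest value of 2774720 bp, on V. Yet 52 of the 302 (17.2%) had another broad region within 2000 bp and 102 (33.8%) within 10000 bp. No matching share of narrower regions is given here, so closer grouping than among other peaks is not shown. By chromosome the median gap was smallest on III (112262 bp) and X (117180 bp) and largest on I (247338 bp). When combined peaks were strung into runs with gaps of up to 2000 bp, 265 runs held a broad region. Of these, 97 were a lone peak, 233 held 1 broad region, 29 held 2, 2 held 3 and 1 held 5.

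The run with 5 broad regions lay on V from 6007754 to 6019360, a span of 11607 bp with 8 combined peaks, 6 of them in both replicate lists. Its broad members were 1700, 1120, 2000, 1163 and 1211 bp wide, and peaks covered 70.3% of the span. The next broad region, 203894 bp after its last broad member, was the widest of all, V 6220704 to 6229986. The runs with 3 broad regions were V 10711464 to 10720223 (8760 bp, 5 peaks) and X 4140260 to 4149143 (8884 bp, 4 peaks). The longest run was I 5303596 to 5316968, with 10 peaks over 13373 bp, 2 of them broad. These runs were named after their values were seen.

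The closest pairs of broad regions, besides that on V described with the replicate 2 peaks, were II 11634846 to 11636314 and 11636545 to 11637747, separated by 230 bp, and V 1473598 to 1475051 and 1475303 to 1477088, separated by 251 bp. The II pair differed in strength, with q-values of 1.52e-42 and 1.27e-09. Both of its regions were broad in replicate 1 as well, at 1338 and 1078 bp. The V pair had 899 and 339 bp in replicate 1. At the other extreme, II 3244869 to 3246196 (1328 bp) had no other combined peak within 156702 bp. X 12104676 to 12106688 (2013 bp) and IV 13645701 to 13646993 (1293 bp) had none within 65061 and 60950 bp. In replicate 1 these isolated regions had peaks of 390, 1538 and 827 bp.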

How the data were processed

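The 2 ChIP libraries have 1 deposited peak list each, and a combined list accompanies them. Per the file headers, positions are on WormBase WS180 and PeakSeq is the source of each row. Each row carries the authors' q-value, used here to rank and describe peaks within a list. For the PeakSeq version, its thresholds, the use of input and the way of combining replicates, the sources used here give nothing. Depth is unknown, as the lists hold no counts of reads.

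Overlaps, widths, gaps (edge to edge) and shares were computed with Python 3.11.15, numpy 2.4.6, scipy 1.17.1 and pandas 2.3.3, and figures with matplotlib 3.10.9. Coverage is the percentage of a region's bases inside replicate peaks. A chromosome's span ran from its first to its last called base over the 3 lists. Intervals of shares are exact (Clopper-Pearson) 95% intervals. Those of medians, used only to judge the alternative values, were read from the ranked values with binomial 95% limits. No significance test was made. The code was tested on simulated data with planted splits, coverage and gaps. Gene annotation and sequences of another build were not used.

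Named regions are the 10 widest, the widest per chromosome, the 5 with most peaks in each replicate, the 5 least covered in replicate 1, those nearest the width limit (3 on each side), the 3 closest pairs and the 3 most isolated. The members and these rules were chosen with earlier results of these data known. Alternatives were other width limits, overlap rules, ranks, joining of peaks, replicates, spans and distances.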

Additional observations from a re-analysis of the deposited data

How the results depend on the processing

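Of 110 alternative values over 10 results, 84 stayed within the 95% interval of the reported value (for the number of regions, within 1.5 times) and 26 did not. The 84 include the values from joining at 100 bp and from leaving out replicate 2, which could not differ from those reported. The shares on X (20.9% to 26.9%) and in the central 33.3% of the span (35.3% to 38.2%), the share split in replicate 2 and the coverage in replicate 2 stayed within their intervals under each alternative run. Other width limits select other regions. At 800, 1500 and 2000 bp, the share split in replicate 1 was 13.3%, 32.7% and 41.3%, the share 1 kb or wider in replicate 1 was 26.2%, 53.1% and 72%, and the median gap to the next region was 112416, 353233 and 748870 bp. The limits of 1500 and 2000 bp left 147 and 75 regions, and coverage in replicate 1 was 67.7% at both 800 and 2000 bp. In the better-ranked 50% of each list, which removes weak peaks, 12% were split and 45.2% were 1 kb or wider in replicate 1, coverage there was 67.7%, and 53.9% had a neighbour within 2000 bp. Joining peaks at gaps to 500 bp gave a coverage of 52.9% and a neighbour share of 53.2%; joining at 100 bp changed nothing, since no gap was shorter than 200 bp. The neighbour share was 52.3% at 1000 bp, 82.1% at 5000 bp and 43.7% with neighbours found in both replicate lists. Chosen after seeing the data, the 500 smallest q gave 24.7% split, 47% of 1 kb or wider in replicate 1, a coverage of 69.6% and a median gap of 249106 bp; leaving out peaks under 50 bp moved no value out of its interval. Without replicate 1 there were 372 regions, and without replicate 2 there were 302, with the same values as reported, since each combined peak of 1 kb or more overlapped replicate 2. No paired analysis was possible because the ChIP libraries are 1 group and peak lists of the inputs were not used here. Depth is unknown, and whether stretches missing from replicate 1 were unbound or undetected was not tested.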
